A study of Homo sapiens with 16 samples.

Results

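The 10 genes MET, TEAD1, TEAD4, YAP1, WWTR1, CCN1, CCN2, AMOTL2, FOSL1 and JUN stand for the Hippo pathway with its effectors and targets, the AP-1 factors and the receptor MET. They are 10 of 19974 protein-coding genes, and were chosen by their peaks in these same data, so their peak values are a description. Peaks were assigned to a gene where they overlapped its RefSeq body (hg38) extended by 1 kb at each end. The libraries map ARID1A, the DNA-binding subunit of a SWI/SNF remodelling complex, together with the repressive histone mark H3K9me3 and the proteins TRIM28 and SETDB1. All come from HCT116, which is a long-established line of human colorectal cancer cells. TRIM28 is a corepressor that brings SETDB1, an H3K9 methyltransferase, to chromatin.

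Cells in 3 states were compared by chromatin immunoprecipitation and sequencing (ChIP-seq): HCT116 with an shRNA against ARID1A (shARID1A), HCT116 with a control shRNA (shCtrl), and HCT116 with no shRNA named (unmodified). shARID1A cells had H3K9me3, TRIM28 and SETDB1 libraries, shCtrl cells had H3K9me3, TRIM28, SETDB1 and ARID1A libraries, and unmodified cells had H3K9me3, TRIM28 and ARID1A libraries. The ARID1A protein left after the knockdown was not measured here, since no ARID1A library of shARID1A cells was analysed. Whether the shRNA cells were a clone or a pool is not given in the sources used here. Each state and antibody had 1 library, so no difference below has a replicate check and none was tested. Intervals cover counting error only.

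The Hippo kinases keep the coactivators YAP1 and WWTR1 (TAZ) out of the nucleus, and when they are off, both bind DNA through TEAD factors. CCN1, CCN2 and AMOTL2 are classic targets of YAP1, WWTR1 and TEAD, and AMOTL2 also acts as a scaffold that restrains YAP1. FOSL1 and JUN pair into AP-1, which often occupies the same enhancers as TEAD. MET is the receptor tyrosine kinase for hepatocyte growth factor and a driver in colon cancer.

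Each of the 10 libraries has a list of peaks called against input and another against IgG, and the input list is used unless IgG is named. In all, 665 of 724562 input peaks and 1205 of 1892016 IgG peaks lay in the 10 genes. Fold enrichment is the authors' value for each peak, and a strong peak has a q of at most 0.05. Input lists held between 11374 peaks in unmodified H3K9me3 and 203714 in shARID1A TRIM28, of which between 8.02% and 99.9% had a q of 1. The sequencing depth of the libraries is unknown. In 7 lists, fold and p gave whole fragment numbers at the summit for 92.2% to 98.5% of 400 sampled peaks each. Peaks in the 10 genes there held between 3 and 37 fragments, with medians of 5.5 to 7.0, so most peaks described below rest on few fragments.

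The library labelled shCtrl H3K9me3 stood apart from the other libraries of that mark. Zinc finger genes of chromosome 19 are a known site of H3K9me3. Peaks per Mb there, relative to all gene windows, were 1.48 in shARID1A H3K9me3, 0.135 in shCtrl H3K9me3 and 1.61 in unmodified H3K9me3. Of 250 of those genes, 115 had a peak in shARID1A H3K9me3 and 29 in shCtrl H3K9me3 (all genes 46.8% in each). In unmodified H3K9me3 35 had one (all genes 13.6%). By number of genes, only shCtrl H3K9me3 lay far from the share over all genes. The ratio of peaks per Mb was 0.153 in shCtrl ARID1A and 0.0289 in unmodified ARID1A. Whether a label or an antibody plays a part was not tested. Within the 10 genes, 2 of 139 shCtrl H3K9me3 peaks (1.44%, 95% exact interval 0.175% to 5.1%) met an unmodified H3K9me3 peak, and over all genes 0.651% did. H3K9me3 differences below are between the libraries labelled so, and peak numbers are also given with the unmodified library in place of shCtrl.

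All 10 genes had a peak in shCtrl SETDB1, the only library of the 10 in which that was so in the input lists (all genes 58.7%). In shARID1A cells 6 genes had an H3K9me3 peak (all genes 46.8%), 7 a TRIM28 peak (72.4%) and 7 a SETDB1 peak (43.7%). In shCtrl cells 8 had an H3K9me3 peak (46.8%), 6 a TRIM28 peak (40.4%) and 6 an ARID1A peak (52.4%). In unmodified cells 3 had an H3K9me3 peak (13.6%), 4 a TRIM28 peak (28.4%) and 6 an ARID1A peak (25.8%). Counts of genes with any peak follow gene length. The genes therefore fall into 5 long ones of 81.3 to 270 kb, set beside 3205 genes as long, and 5 short ones of 3.19 to 20.1 kb, set beside 6957.

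Strong peaks were found in 4 libraries. In shARID1A H3K9me3 they lay in 1 of the 5 long genes (genes as long 41.7%) and 1 of the 5 short ones (6.38%). In shCtrl H3K9me3 they lay in 4 long genes (31.6%) and 2 short ones (2.23%). In shCtrl SETDB1 they lay in all 5 long genes (76.8%) and 4 short ones (27%). In unmodified ARID1A they lay in 3 long genes (5.9%) and in no short one (0.187%). No gene had a strong input peak in shARID1A TRIM28, shARID1A SETDB1, shCtrl TRIM28, shCtrl ARID1A, unmodified H3K9me3 or unmodified TRIM28. Against IgG the contrast between the shRNA states was smaller. A strong H3K9me3 peak then lay in 7 of the 10 genes in shARID1A (all genes 48.3%) and in 6 in shCtrl (22.8%), and a strong SETDB1 peak in 6 in shARID1A (19.8%) and in all 10 in shCtrl (58.1%).

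**Figure D1:**
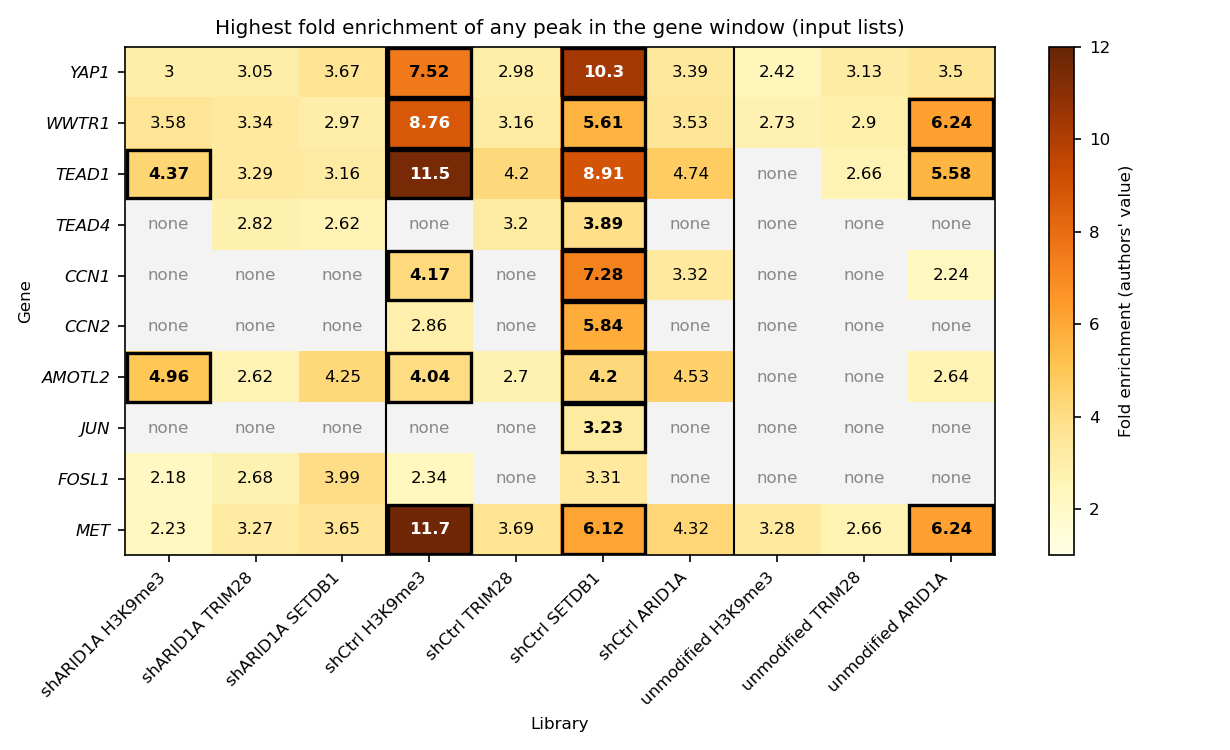
Highest fold enrichment of any input-list peak in each gene (down) and library (across). Bold boxed values belong to genes with a strong peak in that library, and "none" marks a gene without a peak. The highest values stand in shCtrl H3K9me3 (11.7 in MET and 11.5 in TEAD1) and shCtrl SETDB1 (10.3 in YAP1).

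In the input lists, peaks were denser in the 10 genes than over all gene windows in every shCtrl and unmodified library, and in 1 of 3 shARID1A libraries. Per Mb there were 17.3 H3K9me3 peaks in shARID1A (all genes 18.8), 160 in shCtrl (36.8) and 6.92 in unmodified cells (3.8). SETDB1 had 21.9 per Mb in shARID1A (15) and 123 in shCtrl (30.7). TRIM28 had 64.6 in shARID1A (69.6), 57.7 in shCtrl (25.5) and 35.8 in unmodified cells (11.5). ARID1A had 137 in shCtrl (45.6) and 142 in unmodified cells (13.2). The ratio to all genes was highest for unmodified ARID1A, at 10.8 against input and 6.52 against IgG, and for its strong peaks at 28.9. Against IgG the 3 shARID1A libraries lay above all genes, at 1.45 for H3K9me3, 1.74 for TRIM28 and 1.65 for SETDB1, where the input lists gave 0.919, 0.928 and 1.46.

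**Figure D2:**
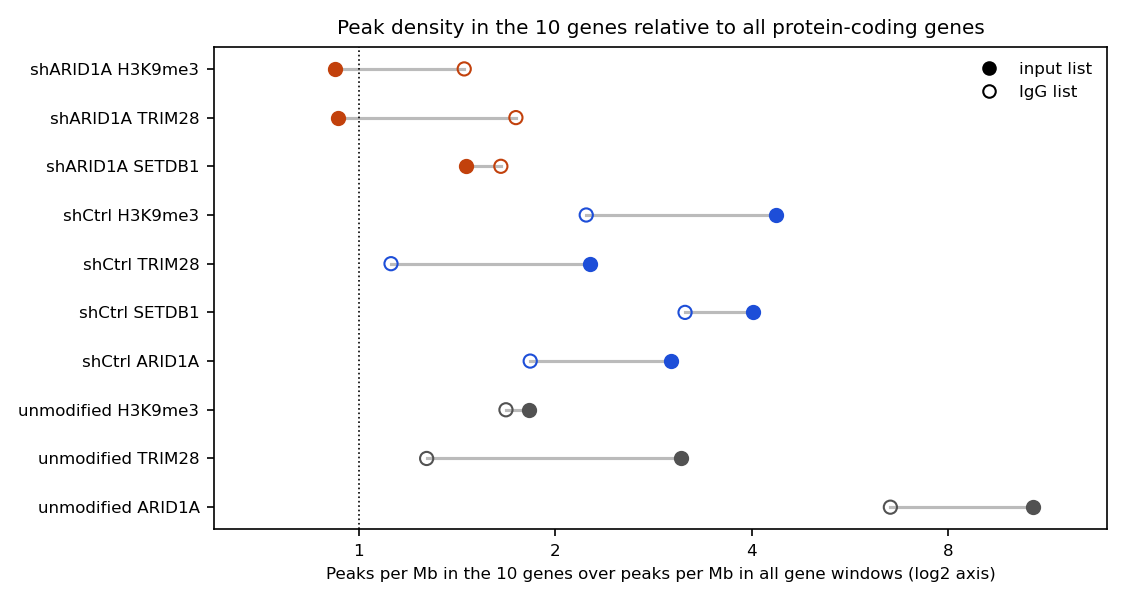
Peaks per Mb in the 10 genes divided by peaks per Mb in all protein-coding gene windows, by library, on a log2 axis. Filled circles are input lists and open circles IgG lists. Unmodified ARID1A lies farthest to the right, at 10.8 and 6.52, and the input lists of shARID1A H3K9me3 and TRIM28 lie just left of 1, at 0.919 and 0.928.

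YAP1 (Gene ID 10413), one of the 2 coactivators, lies on chromosome 11 from 102110447 to 102233424. It held 4 H3K9me3, 9 TRIM28 and 4 SETDB1 peaks in shARID1A cells. In shCtrl cells it held 22 H3K9me3, 5 TRIM28, 18 SETDB1 and 21 ARID1A peaks, and in unmodified cells 1 H3K9me3, 4 TRIM28 and 22 ARID1A peaks. In the IgG lists YAP1 held 21 H3K9me3, 35 TRIM28 and 30 SETDB1 peaks in shARID1A cells, and 25, 5 and 17 in shCtrl cells. The highest H3K9me3 fold was 3 in shARID1A, 7.52 in shCtrl and 2.42 in unmodified cells. Its tallest SETDB1 peak lay just inside the gene in shCtrl, with a fold of 10.3 in a region from 102111534 to 102112485, which starts 1.09 kb from the start site. The same region had a shCtrl H3K9me3 fold of 4.58 and an unmodified ARID1A fold of 2.08, and no shARID1A peak that stood in both control lists. At the start site itself the only input peak was TRIM28 in shARID1A, with a fold of 2.55 and a q of 1. YAP1-DT, a lncRNA that starts beside YAP1, shares that window.

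A second YAP1 region, 67.5 kb into the gene from 102177952 to 102178979, carried H3K9me3 in both shRNA states. Its highest fold was 2.53 in shARID1A H3K9me3, against 7.52 in shCtrl H3K9me3, 5.49 in shCtrl SETDB1 and 3.5 in unmodified ARID1A. Against IgG, which left the precipitated library unscaled in both H3K9me3 lists, the summit there held 12 fragments over a background of 2.55 in shARID1A. In shCtrl it held 27 fragments over 4.98. The background differed as well as the summit, and the folds were 3.66 and 4.68.

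WWTR1 (Gene ID 25937), which encodes the coactivator TAZ, lies on chromosome 3 from 149517235 to 149724788. It held 4 H3K9me3, 15 TRIM28 and 3 SETDB1 peaks in shARID1A cells, against 20, 11 and 14 in shCtrl cells. In the IgG lists the numbers were 27, 42 and 33 in shARID1A cells, and 39, 31 and 31 in shCtrl cells. ARID1A had 13 peaks there in shCtrl cells and 28 in unmodified cells. The highest H3K9me3 fold was 3.58 in shARID1A, 8.76 in shCtrl and 2.73 in unmodified cells. In its body, 3 regions that begin 58.2, 61.8 and 69.2 kb from the lower-coordinate end were strong in shCtrl H3K9me3, shCtrl SETDB1 and unmodified ARID1A alike. The tallest, from 149579075 to 149582798, had folds of 8.76, 5.61 and 6.24 in those 3 libraries and no shARID1A peak in both control lists. Against IgG, shARID1A H3K9me3 reached 3.21 in it. In the same IgG comparison, the shCtrl H3K9me3 summit in that region held 37 fragments over a background of 3.33, the most of any peak with a recovered fragment number in the 10 genes.

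TEAD1 (Gene ID 7003), a DNA-binding partner of both coactivators, lies on chromosome 11 from 12674421 to 12944737. It held 3 H3K9me3, 11 TRIM28 and 5 SETDB1 peaks in shARID1A cells. In shCtrl cells it held 45 H3K9me3, 20 TRIM28, 26 SETDB1 and 45 ARID1A peaks, and in unmodified cells 0 H3K9me3, 7 TRIM28 and 32 ARID1A peaks. In the IgG lists TEAD1 held 28 H3K9me3, 37 TRIM28 and 45 SETDB1 peaks in shARID1A cells, and 45, 29 and 23 in shCtrl cells. The highest H3K9me3 fold was 4.37 in shARID1A, at a strong peak from 12814544 to 12815155, and 11.5 in shCtrl. That 11.5 stood in a region from 12797813 to 12801938, with 7.36 in shCtrl SETDB1 and 4.71 in unmodified ARID1A. Another 3 TEAD1 regions were strong in those same 3 libraries, from 12692244 to 12694691 (10.2, 7.55 and 5.58), from 12721161 to 12726958 (8.42, 8.91 and 5.36) and from 12802185 to 12803287 (6.86, 8.31 and 4.27). The 4 regions begin between 17.8 and 128 kb from the gene's lower-coordinate end, and none of the 4 had a shARID1A H3K9me3 or SETDB1 peak in both control lists.

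Against IgG, 3 of these 4 TEAD1 regions held a shARID1A H3K9me3 peak, with highest folds of 4.12, 3.42 and 2.76 in order of position, and the region from 12802185 held none. From 12693766 to 12694219 the shARID1A fold was 4.12, with 11 fragments over a background of 1.91. The shCtrl peak from 12693085 to 12694215 had a fold of 9.69, with 28 fragments over 1.99. In the region from 12746370 to 12746972, H3K9me3, TRIM28 and SETDB1 peaks of shARID1A cells lay together, with folds of 2.42, 2.99 and 2.85. None of those 3 was strong against input, and H3K9me3 was strong against IgG (4.11). shCtrl cells had no peak there in both control lists. In single lists, shCtrl SETDB1 had a strong peak there against IgG (3.61, q of 0.0176), and a shCtrl H3K9me3 peak met the shARID1A one.

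TEAD4 (Gene ID 7004), a TEAD paralog on chromosome 12 from 2959397 to 3040676, stood out among the long genes by its few peaks in the input lists. No H3K9me3 or ARID1A peak was found in it against input in any state. It held 4 TRIM28 and 2 SETDB1 peaks in shARID1A cells, against 1 and 2 in shCtrl cells, with folds of 1.88 to 3.89. Its only strong input peak was shCtrl SETDB1 at the higher-coordinate end, from 3041553 to 3041879, with a fold of 3.89 against input and 6.55 against IgG. In shCtrl ARID1A, 2775 of 3205 genes as long had more peaks per Mb than TEAD4, which had 0. Against IgG TEAD4 held 7 H3K9me3 peaks in shARID1A and 8 in shCtrl cells, and 5 ARID1A peaks in shCtrl cells. Per Mb, shCtrl H3K9me3 then came to 96.1 (median of genes as long 95.1), shCtrl SETDB1 to 48 (42.2) and shCtrl ARID1A to 60 (149).

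MET (Gene ID 4233), on chromosome 7 from 116672196 to 116798377, held 1 H3K9me3, 12 TRIM28 and 2 SETDB1 peaks in shARID1A cells. In shCtrl cells it held 47 H3K9me3, 11 TRIM28, 40 SETDB1 and 34 ARID1A peaks, and in unmodified cells 4 H3K9me3, 11 TRIM28 and 37 ARID1A peaks. shCtrl H3K9me3 peaks came to 367 per Mb in MET, where the median of genes as long was 35.5, and none of the 3205 genes was denser. SETDB1 came to 312 per Mb in shCtrl MET (median 27.4, 5 genes denser) and ARID1A to 289 in unmodified MET (median 7.81, 5 genes denser). In shARID1A cells, H3K9me3 came to 7.8 per Mb in MET (median 18.4) and SETDB1 to 15.6 (median 13.8). Against IgG MET lay above the median in shARID1A cells, at 164 for H3K9me3 (median 106) and 211 for SETDB1 (median 122). The side of the median on which shARID1A H3K9me3 lay thus depends on the control. TRIM28 peaks, of which none was strong, came to 93.6 per Mb there in shARID1A cells (median 71.4), 85.8 in shCtrl cells (median 23.7) and 85.8 in unmodified cells (median 8.78). Against IgG the TRIM28 values were nearer the medians, at 156 in shARID1A (median 118), 125 in shCtrl (median 104) and 23.4 in unmodified cells (median 23.2).

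**Figure D3:**
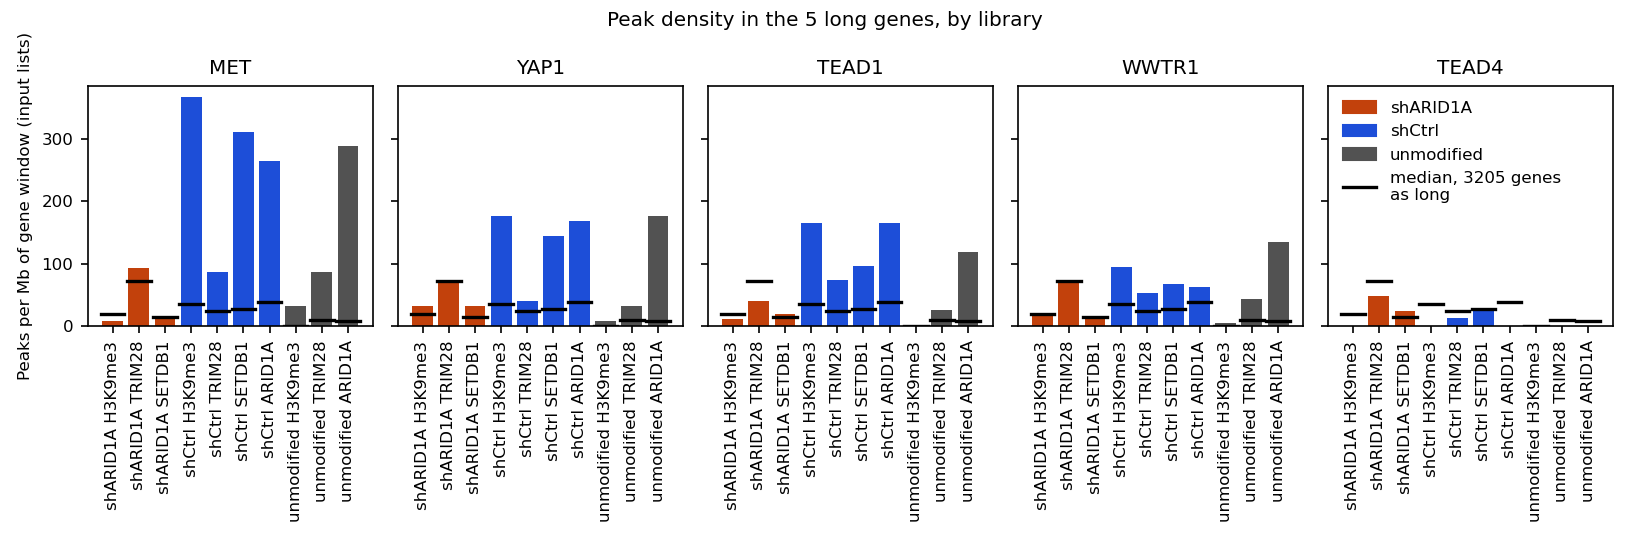
Peaks per Mb of gene window in the 5 long genes (input lists). Bars are single libraries and black lines the median of 3205 genes as long. In MET, shARID1A H3K9me3 stands at 7.8, shCtrl H3K9me3 at 367 and unmodified ARID1A at 289, and TEAD4 has no bar above 48.

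In shCtrl H3K9me3, shCtrl SETDB1 and unmodified ARID1A, the flanks of MET held fewer peaks per Mb than the gene in both control lists, and more than the median of genes as long. In the 100 kb below the gene's lower-coordinate end, shCtrl H3K9me3 had 220 peaks per Mb and shCtrl SETDB1 220. In the 100 kb beyond its other end the values were 80 and 100. Against IgG the lower flank had 150 for each, and the other flank 230 for H3K9me3 and 160 for SETDB1, so which flank was denser depends on the control. COMETT, a lncRNA, overlaps the first of these flanks and the lower-coordinate end of MET. For unmodified ARID1A there were 289 per Mb in MET, against 70 and 120 in the flanks. TEAD1, YAP1 and WWTR1 had 118, 176 and 134 unmodified ARID1A peaks per Mb inside the gene, and 10 and 10, 30 and 20, and 0 and 60 in the flanks. For shCtrl SETDB1 the order in WWTR1 turned with the control: the gene had 66.8 per Mb and its flanks 90 and 130 against input, and the gene had 148 with the same 90 and 130 in the flanks against IgG.

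The tallest MET peaks lay 103 kb into the gene, in a region from 116775390 to 116778213. Its folds were 11.7 in shCtrl H3K9me3, 6.12 in shCtrl SETDB1 and 6.24 in unmodified ARID1A, each strong, and no shARID1A peak stood there in both control lists. In the IgG lists alone, shARID1A TRIM28 reached 2.58 and SETDB1 3.12 there, and shARID1A H3K9me3 had no peak. Against IgG the shCtrl H3K9me3 summit held 34 fragments over 2.29. A second cluster of regions begins between 16.5 and 33.7 kb into the gene. Its region from 116691483 to 116693811 had 6.99 in shCtrl H3K9me3, 5.64 in shCtrl SETDB1 and 3.83 in unmodified ARID1A.

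**Figure D4:**
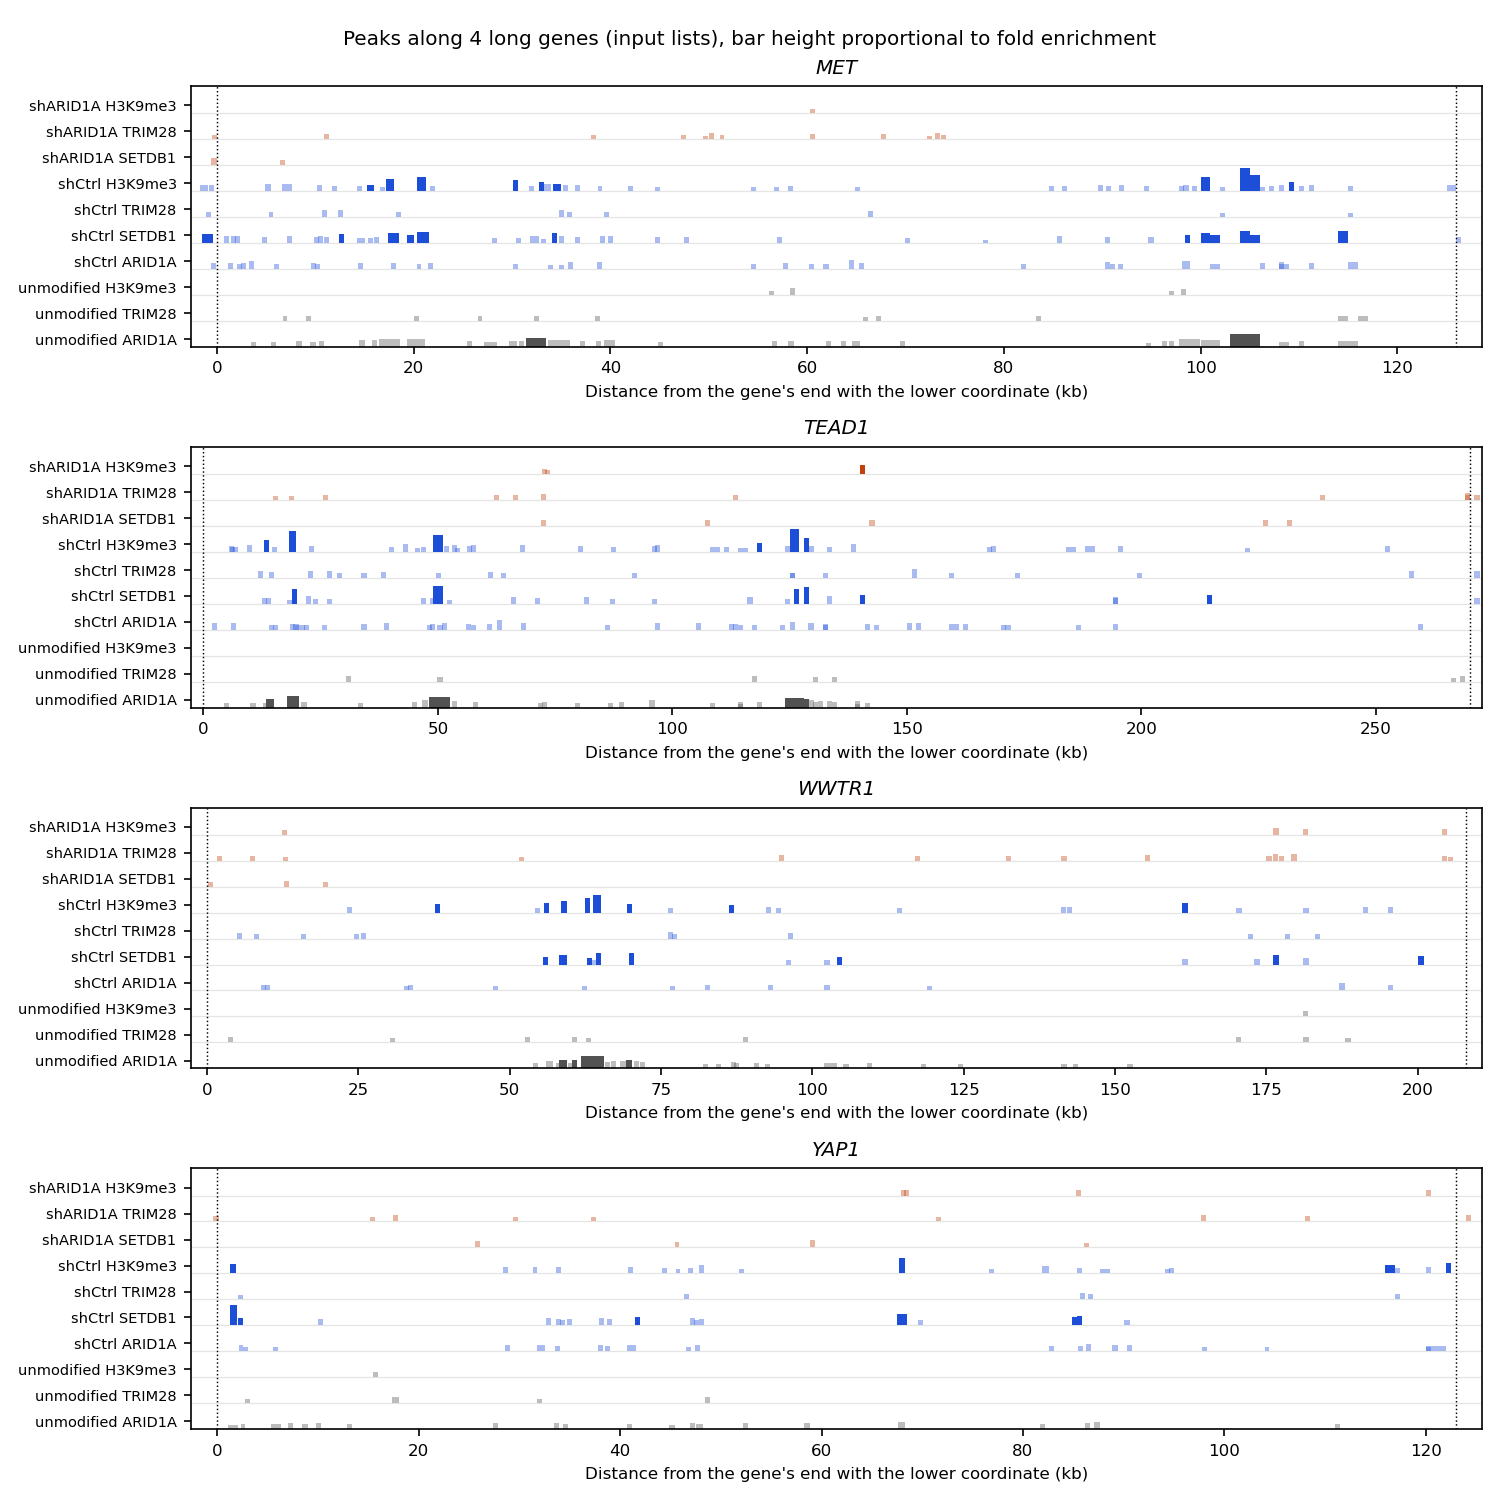
Peaks of each library along MET, TEAD1, WWTR1 and YAP1 (input lists), by distance in kb from the gene's lower-coordinate end. Bar height is proportional to fold enrichment, full colour marks strong peaks and dotted lines the gene's ends. Tall peaks of shCtrl H3K9me3, shCtrl SETDB1 and unmodified ARID1A stand above each other, as in MET at 103 kb with folds of 11.7, 6.12 and 6.24.

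Input peaks that were also found against IgG in the same library were joined where they overlapped. This gave 277 regions in the 10 genes, including regions of a single library. Of the 277, 44 had peaks of at least 3 libraries in both control lists. MET held 20 of these, TEAD1 8, WWTR1 7, YAP1 6 and AMOTL2 3. TEAD4, CCN1, CCN2, FOSL1 and JUN held none. Of the 44 regions, 41 lay in gene bodies and 3 at promoters. Peaks of shARID1A cells stood in 12 of the 44, in 7 for H3K9me3, 8 for TRIM28 and 6 for SETDB1. With IgG lists alone they stood in 34 of the 44, in 22 for H3K9me3, 23 for TRIM28 and 27 for SETDB1. shCtrl SETDB1 had a peak in 36 of the 44, shCtrl H3K9me3 in 33 and unmodified ARID1A in 38, and in 27 regions all 3 had one. shCtrl ARID1A had a peak in 9 of those 27, and its list held 119 peaks in the 10 genes. Unmodified H3K9me3 had a peak in 1 of the 44. No share was computed for regions built the same way over all genes. The 44 were chosen for peaks of at least 3 libraries, which favours libraries with many peaks in these genes. The counts are thus a description only.

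**Figure D5:**
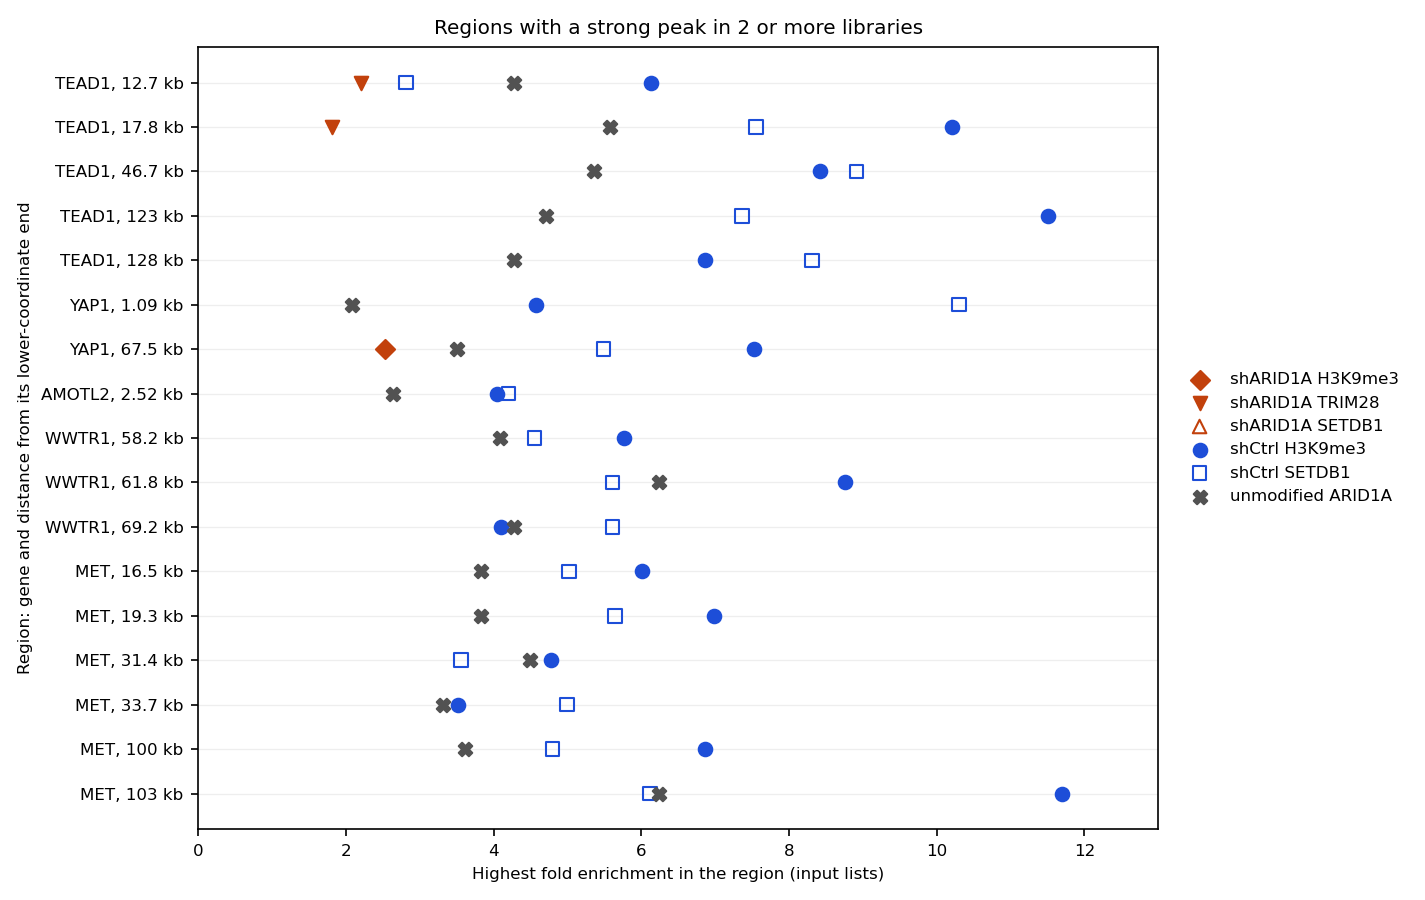
Highest fold enrichment (input lists, peaks also found against IgG) in the 17 shared regions with a strong peak in at least 2 libraries, named by gene and by distance from its lower-coordinate end. shCtrl H3K9me3 (circles), shCtrl SETDB1 (squares) and unmodified ARID1A (crosses) have a value in each. Peaks of shARID1A cells appear in 3, in TEAD1 and YAP1, with folds of 1.81 to 2.53. Strong input peaks in the member genes numbered 30 in shCtrl H3K9me3, 37 in shCtrl SETDB1 and 11 in unmodified ARID1A. They numbered 3 in shARID1A H3K9me3, and 0 in shARID1A TRIM28 and in shARID1A SETDB1. Choosing regions by strong peaks thus favours the former libraries, so nothing is concluded from the few shARID1A peaks.

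Overlap was also counted peak by peak. Of 123 unmodified ARID1A peaks in the 10 genes, 46 (37.4%, exact 95% interval 28.8% to 46.6%) met a shCtrl H3K9me3 peak, and over all genes 29.4% did. A shCtrl SETDB1 peak met 34.1% (all genes 29.1%) and a shCtrl ARID1A peak 28.5% (all genes 14.3%). The same ARID1A peaks met an unmodified H3K9me3 peak in 3.25% (all genes 2.05%). A shARID1A H3K9me3 peak met 4.07% of them (all genes 5.07%), and one called against IgG 19.5% (25.6%). Of the 11 strong ARID1A peaks, 10 met shCtrl H3K9me3 and 10 met shCtrl SETDB1. Read from the other list, 58 of 139 shCtrl H3K9me3 peaks (41.7%, against 11.1% over all genes) and 55 of 107 shCtrl SETDB1 peaks (51.4%, against 13.1%) met unmodified ARID1A. The genes were chosen with such overlaps known, so these shares are a description. ARID1A of unmodified cells and the shCtrl libraries were called against inputs of their own cell state.

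Between the shRNA states, peak numbers in the 10 genes differed most for the libraries labelled H3K9me3 in the input lists, and for TRIM28 in the IgG lists. For H3K9me3 there were 15 in shARID1A and 139 in shCtrl, a log2 ratio of -3.21 (exact 95% Poisson interval -4.09 to -2.44), and -0.965 over all genes. Against IgG there were 127 and 170 (-0.42), where all genes held 130581 and 113644. With unmodified cells in place of shCtrl there were 15 and 6 (1.32), where all genes held 24326 and 4905. SETDB1 had 19 peaks in shARID1A and 107 in shCtrl, a log2 ratio of -2.49 (-3.28 to -1.78), and -1.04 over all genes. Against IgG the sign of the SETDB1 ratio turned, with 160 and 123 peaks (0.38), where all genes held 144477 and 58013. TRIM28 had 56 and 50 peaks, a ratio of 0.16 (-0.41 to 0.74), where all genes had 1.45. Against IgG TRIM28 had 162 and 92 (0.82), where all genes held 138961 and 122469.

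Few peaks stood at the same place in both shRNA states. A shARID1A peak met 3 of 139 shCtrl H3K9me3 peaks (2.16%), 2 of 50 TRIM28 peaks (4%) and 1 of 107 SETDB1 peaks (0.935%), and over all genes 3.33%, 4.98% and 4.59% were met. In the longer IgG lists 24.7% of H3K9me3, 17.4% of TRIM28 and 28.5% of SETDB1 peaks were met. The share over all genes was not computed for the IgG lists, so these values have no background beside them. Among the 92 shCtrl H3K9me3 peaks found in both control lists, 25 met a shARID1A H3K9me3 peak in at least 1 list (27.2%, against 21.9% over all genes) and 67 met none. Of the 67, TEAD1 held 23, MET 20, WWTR1 12, YAP1 11 and CCN2 1. Of 81 such SETDB1 peaks 25 were met (30.9%, against 33.3% over all genes) and 56 were not, with 20 in MET, 15 in TEAD1 and 10 in YAP1. Of 39 shARID1A TRIM28 peaks found in both lists, 1 met a shCtrl TRIM28 peak (2.56%, against 6.79% over all genes) and 38 met none, with 10 in WWTR1 and 9 in YAP1, and none of the 38 was strong.

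Among strong promoter peaks of the input lists, shCtrl SETDB1 had the most. Start sites were known for 6 of the genes (AMOTL2, CCN2, JUN, MET, WWTR1 and YAP1), and a promoter peak lay within 1 kb of one. A strong SETDB1 promoter peak stood in 0 of the 6 in shARID1A (all genes 2.6%) and in 3 in shCtrl (20.6%). Against IgG it stood in 3 in shARID1A (12.6%) and in 4 in shCtrl (34.9%). A strong H3K9me3 promoter peak stood in 1 in shARID1A (3.86%), and against IgG in 3 in shARID1A (27.4%) and 2 in shCtrl (3.8%). The other genes had peaks assigned to either end of the gene. Over all 10 genes, 5 of 37 strong shCtrl SETDB1 peaks lay at a promoter or gene end, against 0 of 30 strong shCtrl H3K9me3 peaks and 0 of 11 strong unmodified ARID1A peaks. Among 15812 genes with a known start site, 20.6%, 0.949% and 0.139% had a strong input promoter peak in those libraries. The order is thus that of the libraries over all genes. The place of strong peaks was not computed over all genes.

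Promoter sequences from RefSeq (GRCh38.p14) were searched on both strands for the TEAD motif GGAATG and the AP-1 motif TGANTCA, whose sites can share bases. The 300 bases around a start, 250 before and 50 after it, held the TEAD motif in 12.2% and the AP-1 motif in 6.15% of 22132 promoters. CCN2 had 3 TEAD motifs, with first bases at -169, -104 and -95 from the start, AMOTL2 had 1 at -69 of its downstream start and YAP1 had 1 at -162. The AP-1 letters were in none of the 8 member promoters, and other forms of an AP-1 site were not searched. The 250 bases before the start are shown for the genes with a strong promoter peak, from the minus strand for CCN2 (chr6:131951373-131951622), AMOTL2 (chr3:134374448-134374697) and JUN (chr1:58784048-58784297) and from the plus strand for MET (chr7:116671946-116672195). Strong input peaks overlap the bases shown in CCN2 and JUN. The strong input peaks of MET, from 116670687 to 116671813, and of AMOTL2, from 134374798 to 134375182, lie outside the bases shown. Against IgG, strong shARID1A SETDB1 peaks covered the bases shown in MET (4.64) and AMOTL2 (4.15). Capitals mark the TEAD motif, on either strand.
CCN2: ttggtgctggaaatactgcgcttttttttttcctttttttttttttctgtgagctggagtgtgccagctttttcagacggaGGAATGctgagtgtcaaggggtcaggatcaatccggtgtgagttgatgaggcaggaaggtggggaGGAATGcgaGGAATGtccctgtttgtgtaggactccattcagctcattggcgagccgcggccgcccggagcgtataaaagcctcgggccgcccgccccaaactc
AMOTL2: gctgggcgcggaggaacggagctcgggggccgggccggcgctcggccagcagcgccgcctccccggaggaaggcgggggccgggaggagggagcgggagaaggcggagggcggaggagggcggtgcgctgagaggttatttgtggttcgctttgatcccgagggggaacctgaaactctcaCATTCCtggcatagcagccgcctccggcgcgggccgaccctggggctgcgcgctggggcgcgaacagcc
JUN: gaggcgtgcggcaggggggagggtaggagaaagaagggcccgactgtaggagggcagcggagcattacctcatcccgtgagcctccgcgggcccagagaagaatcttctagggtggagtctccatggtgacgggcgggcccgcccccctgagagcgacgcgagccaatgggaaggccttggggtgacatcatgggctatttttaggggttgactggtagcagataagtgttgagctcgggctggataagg
MET: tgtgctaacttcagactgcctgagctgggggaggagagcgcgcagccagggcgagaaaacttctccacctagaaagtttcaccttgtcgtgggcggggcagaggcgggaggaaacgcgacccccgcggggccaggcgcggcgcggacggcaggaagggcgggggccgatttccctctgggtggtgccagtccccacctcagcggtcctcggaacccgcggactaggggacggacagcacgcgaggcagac

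CCN2 (Gene ID 1490), the gene of connective tissue growth factor, lies on chromosome 6 from 131948176 to 131951372. No shARID1A library had an input peak in it, and in shCtrl cells it had 1 SETDB1 and 2 H3K9me3 peaks. The SETDB1 peak, from 131951413 to 131951695, had a fold of 5.84 and a q of 1.18e-05. It covered all 3 TEAD motifs and ended short of the start site. The shCtrl H3K9me3 peak over the same bases had a fold of 2.86 and a q of 1. Against IgG, a SETDB1 peak covered the 3 motifs in both shRNA states, with a fold of 3.71 (q of 0.0821) in shARID1A and 5.7 (q of 2.35e-06) in shCtrl.

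CCN1 (Gene ID 3491), a sister gene on chromosome 1 from 85580761 to 85583950, likewise had no input peak in shARID1A cells. Its shCtrl SETDB1 peak just outside the lower-coordinate end, from 85580242 to 85580696, had a fold of 7.28 and a q of 4.14e-11. Against IgG, SETDB1 at that end had 3.93 in shARID1A, on 8 fragments, and 12.7 in shCtrl. shARID1A H3K9me3 had 4.79 there against IgG, on 10 fragments. A strong shCtrl H3K9me3 peak lay inside the gene, from 85582466 to 85582695, with a fold of 4.17.

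AMOTL2 (Gene ID 51421), on chromosome 3 from 134355345 to 134375417, was the only one of the short genes with a strong shARID1A input peak. Inside the gene, shARID1A H3K9me3 had a fold of 4.96 (q of 0.000422) and shARID1A SETDB1 4.25 (q of 0.0669), in a region from 134364283 to 134365099 with no shCtrl peak in both control lists. Between its start sites shARID1A H3K9me3 had 3.97 (q of 0.0246), and against IgG 4.64, where shCtrl H3K9me3 had 4.01. The region from 134357863 to 134358460 had no shARID1A input peak, and in shCtrl cells folds of 4.04 for H3K9me3 and 4.2 for SETDB1. Against IgG the H3K9me3 fold there was 4.03 in shARID1A and 4.87 in shCtrl. A shARID1A SETDB1 peak with a fold of 3.6 (q of 0.513) covered the TEAD motif at the downstream start. Against IgG the SETDB1 fold over that motif was 4.15 (q of 0.0202) in shARID1A.

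JUN (Gene ID 3725), the central AP-1 subunit, lies on chromosome 1 from 58780791 to 58784047 and had 1 input peak over all 10 libraries. That peak was shCtrl SETDB1 over the start site, from 58783971 to 58784192, with a fold of 3.23 and a q of 0.0358. Against IgG the start site had 5.48 in shARID1A H3K9me3 and 5.44 in shARID1A SETDB1, on 12 fragments each, and 2.67 and 6.35 in shCtrl. The shARID1A peaks at JUN thus stood in the IgG lists only.

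FOSL1 (Gene ID 8061), the AP-1 subunit FRA1, lies on chromosome 11 from 65892049 to 65900545. Its highest input fold was 3.99 in shARID1A SETDB1 at the lower-coordinate end, from 65891726 to 65892285, and 3.31 in shCtrl SETDB1 nearby. The first overlapped no shCtrl SETDB1 peak of either control list, and reached 5.01 against IgG on 10 fragments. CCDC85B ends within 1 kb of that end, so the peak cannot be given to FOSL1 alone. The promoter of MET had peaks of 6 libraries in both control lists, with SETDB1 folds of 3.65 in shARID1A (4.64 against IgG) and 4.34 in shCtrl. The shARID1A peak covered the start site and the shCtrl peak ended before it.

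Other genes of these pathways were taken from 4 lists. Strong peaks in both control lists of shARID1A H3K9me3 were found in 7 of 19 Hippo regulators, 7 of 21 other YAP and TAZ targets, 2 of 17 other AP-1 genes and 6 of 15 MET signalling genes (all genes 16.7%). The shCtrl H3K9me3 counts were 8, 9, 2 and 6 (all genes 11.3%), and those of shCtrl SETDB1 14, 16, 5 and 11 (42.1%). No count was adjusted for gene length. In shARID1A H3K9me3 the tallest of these stood in CBL, a ubiquitin ligase for MET, with a fold of 11.5. The tallest CBL peak of shCtrl H3K9me3, with a fold of 4.1, lay at another site in the gene. For unmodified ARID1A the counts were 1, 4, 0 and 0 (all genes 1.37%), with PTPN14 on both of the first lists. PTPN14, a phosphatase that restrains YAP1, had a fold of 7.38 in shCtrl H3K9me3 and 6.24 in unmodified ARID1A. MYOF, CRIM1 and ASAP1 had 5.75, 6.53 and 8.54 in shCtrl H3K9me3, and 4.71, 4.49 and 4.9 in unmodified ARID1A. Like MET and TEAD1, these 4 genes thus had strong peaks in both libraries. The tallest peaks of both libraries overlapped in PTPN14 and ASAP1, and lay at separate sites in MYOF and CRIM1.

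The genes most like MET by the log2 highest fold over the 10 input lists, with a missing peak set to a fold of 1, were ARHGAP18, IQGAP1, SH3RF1, IRS1 and TAB2, with r between 0.924 and 0.952. MET had 2.23 in shARID1A H3K9me3, 11.7 in shCtrl H3K9me3 and 6.24 in unmodified ARID1A, where ARHGAP18 had 2.28, 10.6 and 7.12. The most like TEAD1 were DDX10, PPP3CA, RAB31, MBNL1 and ELOVL5, with r between 0.983 and 0.986. TEAD1 had 4.37, 11.5 and 5.58 in those libraries, where RAB31 had 3.57, 10.5 and 4.27. The lists of a state share their input library, and the correlations are descriptions over 10 lists.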

How the data were processed

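Peak lists of 10 ChIP-seq libraries of HCT116 cells, each called against input and against IgG, gave 20 lists. The submitters' processing notes name hg38, MACS2 2.2.7.1, Bowtie2 2.2.5, FastQC 0.11.9, ChIPseeker and deepTools 3.5.1. No options are given there. Fold enrichment, as deposited, divides the pileup at a peak's summit by its local background, a ratio. The deposited −log10 p and −log10 q come from the same call. A list's control was read from its name, and lists of a state were taken to share controls. The antibody product in the protocol differs from that in the sample characteristics for H3K9me3 and TRIM28.

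Only peaks of chromosomes 1 to 22 and X entered. Genes came from RefSeq (GRCh38.p14), in a table without exons or strand, and start sites from RefSeq promoters, found for 6 of the 10 genes. A promoter peak lay within 1 kb of a start site, and for the other 4 genes a peak within 1 kb of either gene end was set apart. Body peaks were not split into exons and introns. Overlap meant at least 1 bp. Fragments at summits were solved from fold and p with a tolerance of 0.003, and depth is otherwise unknown. Intervals are exact 95% Poisson or Clopper-Pearson. Overlap counting and fragment recovery were tested on simulated data, with Python 3.11.15, numpy 2.4.6, pandas 2.3.3 and SciPy 1.17.1. Named were all 10 genes, their tallest promoter and body peak in each list, regions with peaks of at least 3 libraries in both control lists, and the 5 genes most like MET and TEAD1. Members and lists were chosen with earlier results of these data known. Alternatives were IgG lists, a q of at most 0.05, the top 10000 peaks, peaks in both control lists, other extensions and promoter widths, merging within 1 kb, an overlap of 50%, leaving out MET and TEAD1 and, chosen after seeing the data, the unmodified library in place of shCtrl.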

Additional observations from a re-analysis of the deposited data

How the results depend on the processing

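With 1 library a state there is no replicate error, and peaks of few fragments limit what the lists can show. No paired analysis was possible because the result comes from no test and each group holds 1 library. The log2 ratio of H3K9me3 peak numbers, shARID1A over shCtrl, was -3.21, and it was -0.42 against IgG and -2.10 without MET and TEAD1. It turned to 1.32 with the unmodified library in place of shCtrl, an alternative chosen after seeing the data. Over all genes that pair of lists held 24326 and 4905 peaks. For SETDB1 the value of -2.49 turned to 0.38 against IgG, and was -0.74 among the top 10000 peaks and -1.77 without MET and TEAD1. Over all genes the SETDB1 IgG lists held 144477 peaks in shARID1A and 58013 in shCtrl. For TRIM28 the value of 0.16 was 0.82 against IgG, 0.80 without MET and TEAD1, 0.85 with the unmodified library, and turned to -3.17 among the top 10000 peaks, on 1 and 9 peaks. No ratio could be had for strong SETDB1 or TRIM28 peaks, since a state had 0. The cause of these shifts was not tested.

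The share of shCtrl peaks met by a shARID1A peak was 2.16% for H3K9me3. It was 24.7% against IgG, 6.38% without MET and TEAD1, 16.7% with the unmodified library, and 0% among the top 10000 peaks. Among strong peaks it was 0%, where shARID1A H3K9me3 had only 3 strong input peaks and shCtrl 30. Of 30 strong shCtrl H3K9me3 peaks found in both control lists, 14 met a shARID1A H3K9me3 peak of any strength in either list (all genes 60.2%). For TRIM28 the 4% was 17.4% against IgG, and 0% among the top 10000 peaks, in both control lists and without MET and TEAD1. For SETDB1 the 0.935% was 28.5% against IgG, and 0% among the top 10000 peaks, with no extension, with a 50% overlap and without MET and TEAD1. Among strong SETDB1 peaks the 0% could not be otherwise, since shARID1A had 0 strong input peaks, so nothing is concluded from it. Of 36 strong shCtrl SETDB1 peaks found in both control lists, 16 met a shARID1A SETDB1 peak of any strength in either list (all genes 40.5%).

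Against IgG, genes with a peak came to 10 in shARID1A H3K9me3 (all genes 85.4%), 10 in shCtrl ARID1A (83.8%) and 8 in unmodified TRIM28 (49.2%). Among strong input peaks they came to 2 in shARID1A H3K9me3 (17.4%) and 3 in unmodified ARID1A (1.96%). They came to 0 in shARID1A TRIM28 and SETDB1, shCtrl TRIM28 and ARID1A, and unmodified H3K9me3 and TRIM28 (0.01% to 3.91%). Genes with a promoter peak against IgG came to 6 in shARID1A H3K9me3 (all genes 58.1%) and 6 in shARID1A SETDB1 (60.6%). In shCtrl they came to 5 for H3K9me3 (29.9%), 2 for TRIM28 (21.1%) and 5 for ARID1A (59.1%). In unmodified cells they came to 2 for TRIM28 (8.06%) and 5 for ARID1A (9.91%). Strong ones against input came to 0 in shARID1A TRIM28 and SETDB1, shCtrl H3K9me3, TRIM28 and ARID1A, and unmodified ARID1A (0.00632% to 2.6%). Genes with any input promoter peak within 2 kb came to 5 in shCtrl H3K9me3 and 2 in shCtrl ARID1A, and within 500 bp to 0 in shCtrl TRIM28. No share over all genes was computed at those widths.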
